A study of Mus musculus with 8 samples.

Results

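The lysosome is described here through 48 genes of its digestive enzymes, its membrane proteins, its proton pump and the factors that regulate them, in mouse embryonic stem cells with and without a hairpin against Mkrn1. The genes were taken from a fixed list, each by the probe set that carried its symbol alone and had the highest mean, and 47 of the 48 had a value among 19937 genes (Atp6v0c was not analysed here). They comprise 25 hydrolases and other proteins of the lysosomal lumen, 6 membrane proteins, 2 transcription factors and 15 subunits of the vacuolar ATPase, of which 14 were measured. The cells were R1, a male line of 129X1 x 129S1 background, and each group had 4 arrays. The shGFP group received a pLKO.1 plasmid with a hairpin against GFP, and the shMKRN1 group the same vector with a single hairpin against Mkrn1, whose target sequence is shown because it defines the comparison. Both groups were transiently transfected, kept in LIF and 15% serum, selected with puromycin for 4 days and lysed on day 6, so each array measures a pool of resistant cells rather than a clone.
shMKRN1 hairpin: gcgagatgttgcttatgcttt

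Lysosomes break down proteins, sugar chains, lipids and nucleic acids at acid pH. Their soluble enzymes are made in the endoplasmic reticulum, most are tagged with mannose 6-phosphate in the Golgi, and receptors carry them to endosomes. The vacuolar ATPase acidifies the lumen: its cytosolic V1 sector splits ATP and its membrane V0 sector conducts protons. TFEB and TFE3, factors of the MiT/TFE family, bind an E-box with the core CACGTG that lies near the start of many lysosomal genes, and mTORC1 on the lysosomal surface keeps these factors in the cytoplasm when nutrients are plentiful.

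Mkrn1 itself lay at log2 levels of 10.45, 10.45, 10.51 and 10.34 in shGFP arrays 1, 3, 5 and 7 and at 9.81, 9.81, 9.86 and 9.88 in shMKRN1 arrays 2, 4, 6 and 8. The groups did not overlap (exact two-sided permutation p = 0.0286, the smallest that 4 against 4 arrays can give), and 66.2% of the control level was left. Arrays shGFP 7 and shMKRN1 8 stood apart from the others of their groups on the leading principal component (23.2 against -3.45 to 6.2, and 7.46 against -15.2 to -6.02), so counts are also given without both. The embryonic stem cell markers Pou5f1 (11.99 in shGFP, 11.98 in shMKRN1) and Sox2 (11.66 and 11.63) were high in both groups. Of the 8 stem cell markers measured, Nanog rose by 0.25 (limma adjusted p = 0.0256, lost without shGFP 3 or shMKRN1 2, 4 or 6), while Esrrb (0.15 higher) and Utf1 (difference -0.15) had an unadjusted p under 0.05 only. The summed level of this list was 28880 to 29865 in shGFP and 29333 to 30296 in shMKRN1. None of 10 macrophage markers passed limma or had an unadjusted p under 0.05, and 6 of them lay below 6.50, the level under which 95% of odorant and pheromone receptor genes fell on these arrays. The macrophage list had 1 mean higher and 9 lower, with a median log2 change of -0.08. The summed linear level of the macrophage list was 748 to 884 in shGFP and 715 to 856 in shMKRN1. Of 10 fibroblast markers 3 rose (Col1a1, Pdgfrb and Fbln1), or 30% beside 3.66% of all genes, and 8 means were higher and 2 lower. With each array left out in turn, all 3 calls held only without shGFP 7. The summed level of the fibroblast list was 2128 to 2377 in shGFP and 2510 to 2817 in shMKRN1. The summed level of 11 primitive and visceral endoderm markers was 5253 to 5592 and 5736 to 6132, with no member past the test and 1 (Apoe) at an unadjusted p under 0.05. Apoe was the brightest of them (11.73 in shGFP, 11.91 in shMKRN1) and so weighs most in this linear sum. The median log2 change of the list was 0.02, with 9 means higher and 2 lower. The part of these cell types in the results was not tested, and in bulk RNA a change in the share of a cell type cannot be told apart from a change in RNA per cell.

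Of the lysosomal transcripts 6 rose under the Mkrn1 hairpin, all of them encoding proteins of the lumen: the proteases cathepsin L (Ctsl) and cathepsin Z (Ctsz), the sugar-cleaving enzymes Hexa and Galc, the lipase Lipa and the sterol carrier Npc2. That is 6 of 25 luminal genes, 0 of 6 membrane proteins, 0 of 2 transcription factors and 0 of 14 measured pump subunits, by limma at an adjusted p of 0.05 over all genes. Across all genes 4.49% were called, 3.66% higher and 0.838% lower, and no lysosomal gene was called lower. At an unadjusted p under 0.05, 11 luminal genes, 1 membrane protein and 3 pump subunits were higher, and 0, 1 and 1 were lower, against 13.7% higher and 5.78% lower over all genes. The increases were small, between 1.14-fold (Npc2) and 1.30-fold (Galc). The median log2 change was 0.13 over the luminal genes, 0.05 over the membrane proteins and 0.11 over the pump subunits. It was 0.01 over all genes and 0.04 over the genes above the median level. The latter are nearer in level to the lysosomal genes, whose median level was 10.2 beside 7.61 over all genes. Differences between these classes were not tested. The 6 calls did not hold when some single arrays were left out: none of the 6 passed without shGFP 3, without shMKRN1 2 or without shMKRN1 6. All 6 kept an unadjusted p under 0.05 in each of those fits. They had been picked by small p-values in the full fit, which holds the same arrays, so this adds no support. The calls over all genes fell in those fits too, from 896 to 324, 353 and 309. Without shGFP 7 and shMKRN1 8 together, 5 of the 6 passed and Npc2 did not. Adjusted over all 34760 probe sets, named or not, Ctsz alone passed (adjusted p = 0.0486).

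**Figure D1:**
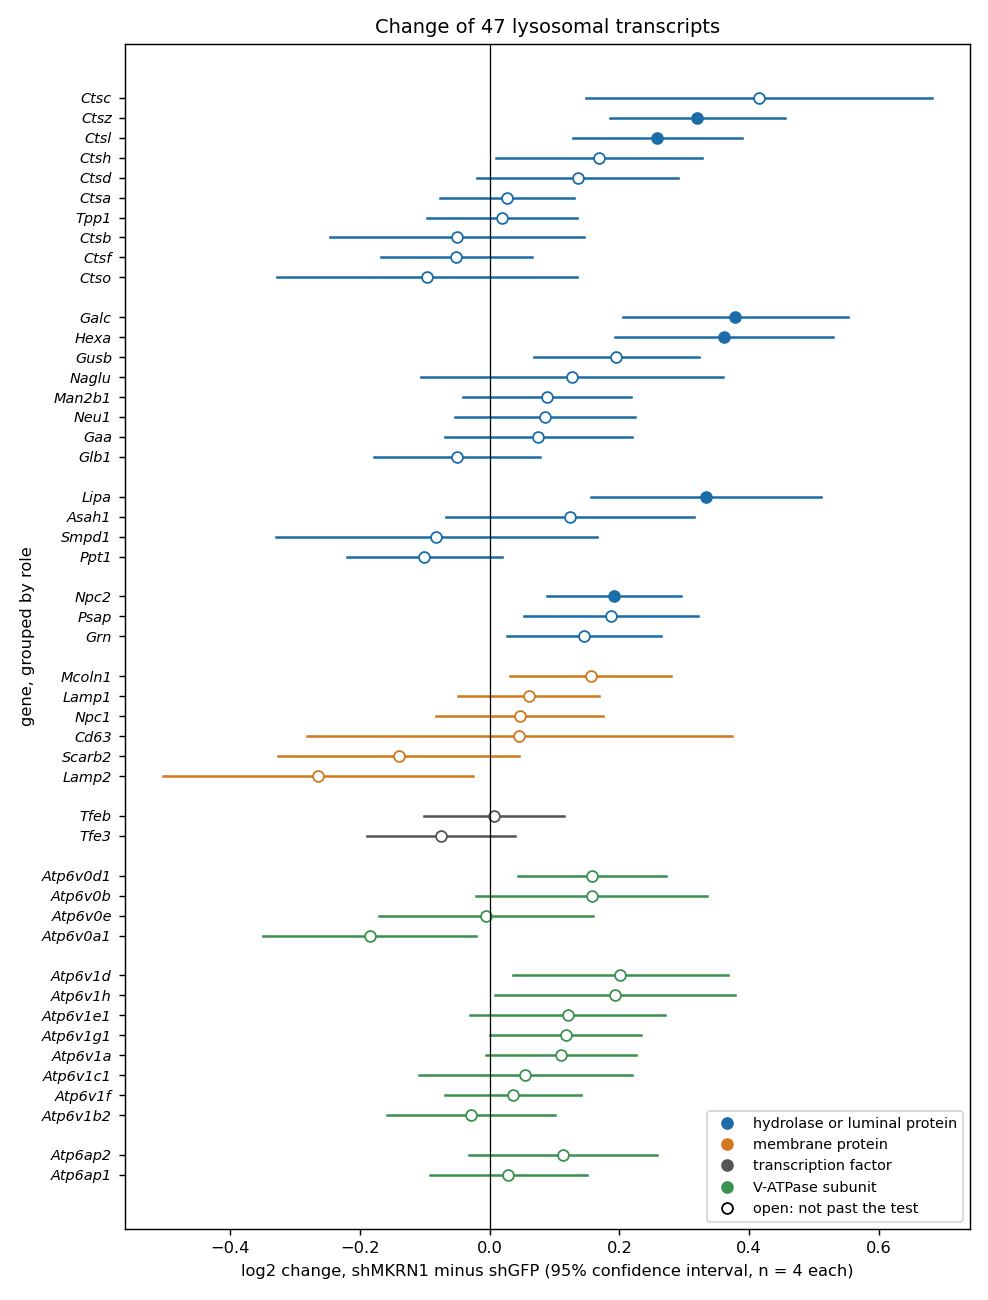
Log2 change (shMKRN1 minus shGFP, points) with its 95% confidence interval (lines) for the 47 measured genes, grouped by role and ordered by size within each role; filled points passed limma at an adjusted p of 0.05. The 6 filled points are all luminal proteins, with changes from 0.19 to 0.38, and the intervals of the 14 pump subunits lie between -0.35 and 0.38.

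The start regions of the genes are shown next because the E-box is the element through which TFEB and TFE3 are known to act. RefSeq start windows of GRCm38.p6, from 250 bases before the transcript start to 50 after it, were available for 39 of the 47 genes, and a gene with several windows was counted as holding a motif if any of them did. The core CACGTG, which reads the same on both strands, was held by 13 of 39 (33.3%), against 9.52% of the 15562 tested genes with a window. The longer TCACGTG, searched on both strands and containing the core, was held by 11 of 39 (28.2%), against 5.36% of the 15562. None of the 6 transcripts that rose held TCACGTG, and Ctsl alone held the core. The 11 holders of TCACGTG were Ctsa, Ctsd, Gaa, Glb1, Naglu, Lamp1, Mcoln1, Atp6v0b, Atp6v0d1, Atp6v0e and Atp6v1a. Their median log2 change was 0.11 (range -0.05 to 0.16) with none called, and that of the 28 genes with a window but no TCACGTG was 0.09 (range -0.26 to 0.41) with 6 called. Among the 834 of the 15562 tested genes with a window that held TCACGTG, 38 were called higher. Over all 19937 genes, with or without a window, 729 were (3.66%), which is not the same base. The median change of the 834 was 0.03, and the difference between holders and the other genes was not tested. A match is a string of letters and not a shown binding site, and a window without one says nothing of sites elsewhere. The windows of 3 transcripts that rose and of 3 holders of the motif that were not called are printed 5′ to 3′ on the gene's strand, with TCACGTG or its reverse complement in capitals where present (overlapping matches run together) and otherwise the bare core in capitals.
Ctsl (chr13:64370471-64370770, minus strand): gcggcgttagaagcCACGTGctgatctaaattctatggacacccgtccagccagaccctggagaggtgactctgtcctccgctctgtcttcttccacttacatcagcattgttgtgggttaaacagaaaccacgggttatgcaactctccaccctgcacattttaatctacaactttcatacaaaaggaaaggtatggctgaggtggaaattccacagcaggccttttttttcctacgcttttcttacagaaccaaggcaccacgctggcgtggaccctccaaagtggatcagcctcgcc
Ctsz (chr2:174438990-174439289, minus strand): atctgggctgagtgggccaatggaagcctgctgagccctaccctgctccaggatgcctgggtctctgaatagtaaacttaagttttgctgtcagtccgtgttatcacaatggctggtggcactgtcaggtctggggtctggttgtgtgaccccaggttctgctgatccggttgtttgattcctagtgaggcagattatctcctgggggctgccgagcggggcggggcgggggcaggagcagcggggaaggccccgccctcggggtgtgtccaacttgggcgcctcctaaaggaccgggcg
Hexa (chr9:59539290-59539589, plus strand): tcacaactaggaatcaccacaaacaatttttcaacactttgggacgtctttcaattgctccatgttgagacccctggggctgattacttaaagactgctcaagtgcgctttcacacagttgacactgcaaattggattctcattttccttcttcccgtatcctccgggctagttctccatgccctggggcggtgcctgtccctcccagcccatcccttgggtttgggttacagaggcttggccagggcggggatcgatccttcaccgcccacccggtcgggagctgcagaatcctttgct
Ctsd (chr7:142387778-142388077, minus strand): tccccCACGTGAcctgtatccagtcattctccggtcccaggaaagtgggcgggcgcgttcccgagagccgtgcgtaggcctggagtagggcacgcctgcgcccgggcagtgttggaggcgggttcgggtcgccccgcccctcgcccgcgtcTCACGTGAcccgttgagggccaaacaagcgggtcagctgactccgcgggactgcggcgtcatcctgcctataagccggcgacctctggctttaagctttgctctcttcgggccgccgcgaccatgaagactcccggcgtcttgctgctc
Mcoln1 (chr8:3500269-3500568, plus strand): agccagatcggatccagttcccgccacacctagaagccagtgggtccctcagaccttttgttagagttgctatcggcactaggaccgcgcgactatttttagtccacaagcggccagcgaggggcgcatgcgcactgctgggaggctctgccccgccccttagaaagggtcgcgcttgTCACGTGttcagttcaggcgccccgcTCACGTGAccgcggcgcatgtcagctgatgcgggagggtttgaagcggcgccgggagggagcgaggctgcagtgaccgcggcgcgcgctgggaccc
Atp6v0d1 (chr8:105566015-105566314, minus strand): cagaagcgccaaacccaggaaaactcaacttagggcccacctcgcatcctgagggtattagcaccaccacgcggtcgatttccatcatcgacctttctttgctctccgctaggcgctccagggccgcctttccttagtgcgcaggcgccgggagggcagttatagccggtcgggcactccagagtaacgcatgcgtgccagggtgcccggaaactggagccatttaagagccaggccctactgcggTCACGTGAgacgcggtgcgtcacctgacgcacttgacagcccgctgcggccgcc

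In Ctsl the core lay 236 bases before the start, while in Ctsf, the other gene with the bare core, it lay 79 bases before it. In Atp6v0d1 the core began 3 bases before the start, in Mcoln1 at 71 and 45 bases, and in Ctsd at 245 and 98 bases. Lamp1 held the core at 4 positions, 61, 45, 28 and 15 bases before the start.

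**Figure D2:**
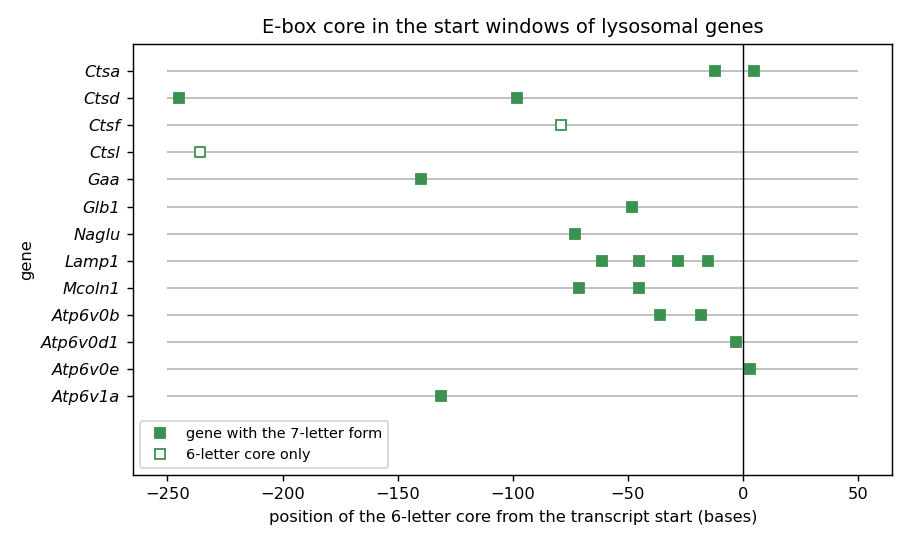
Position of each CACGTG core (squares) from the transcript start, in bases, in the start windows of the 13 lysosomal genes that hold one; each grey line is a window from 250 bases before to 50 after the start. Filled squares are genes whose window holds TCACGTG, open squares Ctsl and Ctsf, which hold the core only.

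Among the 10 proteases, 2 rose. Cathepsin L, an endopeptidase of the lysosome, had log2 levels of 10.99, 10.96, 10.97 and 10.79 in shGFP and of 11.21, 11.24, 11.18 and 11.12 in shMKRN1 (means 10.93 ± 0.091 and 11.19 ± 0.050, SD, n = 4 each). Every shMKRN1 array lay above every shGFP array, and shGFP 7 was the lowest. The change was 0.26 (SE 0.058; limma adjusted p = 0.037), or 1.20-fold. Ctsl has relatives in the placental cathepsins of the mouse, and 7 such genes, chosen after the values were seen, lay between 3.91 and 6.46 in both groups, within the range of 95% of the receptor genes; whether probes are shared was not tested. Cathepsin Z, a carboxypeptidase, lay at 9.99, 10.06, 10.06 and 10.11 in shGFP and at 10.36, 10.26, 10.37 and 10.50 in shMKRN1. Its groups were also separate, with shMKRN1 8 the highest. It rose 1.25-fold (log2 change 0.32, SE 0.060; limma adjusted p = 0.0182). The call of Ctsl was lost without shGFP 1, 3 or 5 or shMKRN1 2, 4 or 6 (adjusted p 0.0568 to 0.109) and that of Ctsz without shGFP 1 or 3 or shMKRN1 2 or 6 (0.0536 to 0.0639), with changes of 0.21 to 0.28 and 0.28 to 0.36 when each array was left out.

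Cathepsin C (Ctsc), a dipeptidyl peptidase that activates proteases of immune cells, had the largest difference among the lysosomal genes and did not pass. It lay at 8.24, 8.41, 8.73 and 8.19 in shGFP and at 8.87, 8.95, 8.84 and 8.59 in shMKRN1. The shGFP 5 array lay above shMKRN1 8, so the groups overlapped. The difference of 0.41 had a wide interval (0.15 to 0.68; limma adjusted p = 0.0851), and without shGFP 5 it was 0.53 with an adjusted p of 0.0217. For the aspartic protease gene Ctsd the difference was 0.14 (interval -0.02 to 0.29). The intervals of Ctsa, the protective protein of lysosomal galactosidase and sialidase (-0.08 to 0.13), Ctsb (-0.25 to 0.14), Ctsf (-0.17 to 0.06) and Tpp1, a tripeptidyl peptidase (-0.10 to 0.13), all included 0. Ctsh (6.30 in shGFP, 6.47 in shMKRN1) and Ctso (6.32 and 6.22) lay within the range of 95% of the receptor genes, so no change in them is read from these values. Ctsh is nonetheless 1 of the 11 luminal genes counted above as higher at an unadjusted p under 0.05.

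Of the 8 genes for sugar-cleaving enzymes, Hexa and Galc rose. Hexa encodes the alpha subunit of beta-hexosaminidase, which degrades the ganglioside GM2. It lay at 9.48, 9.32, 9.40 and 9.13 in shGFP and at 9.64, 9.77, 9.70 and 9.65 in shMKRN1, with no overlap. The change was 0.36 (SE 0.075; limma adjusted p = 0.0271), or 1.28-fold. Galc encodes galactosylceramidase, the enzyme that degrades a main lipid of myelin. Its levels were 7.72, 7.61, 7.69 and 7.38 in shGFP and 7.94, 8.03, 8.05 and 7.91 in shMKRN1. The groups were separate, and again shGFP 7 was the lowest array. The change was 0.38 (SE 0.078; limma adjusted p = 0.0258), or 1.30-fold. Both calls were lost without shGFP 3 or shMKRN1 2, 4 or 6, at adjusted p-values of 0.0656 to 0.0867 for Hexa and 0.0638 to 0.0894 for Galc.

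The other genes of this class did not pass. Gusb, beta-glucuronidase, lay at 8.16, 8.18, 8.27 and 8.19 in shGFP and at 8.28, 8.40, 8.42 and 8.49 in shMKRN1. These groups did not overlap, but the difference of 0.20 had an adjusted p of 0.0869 by limma. Groups were separate and higher in shMKRN1 for 11 of the 47 lysosomal genes, beside 10.6% of all genes, and for none of the 47 were they separate and lower, beside 3.51%. Naglu, which acts on heparan sulfate, differed by 0.13 (interval -0.11 to 0.36), Man2b1, an alpha-mannosidase, by 0.09, the sialidase Neu1 by 0.09 and the glycogen-degrading Gaa by 0.07. Glb1, beta-galactosidase, differed by -0.05 (interval -0.18 to 0.08).

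Among the lipid and ester hydrolases Lipa rose, the acid lipase that frees cholesterol from lipoproteins. Its levels were 8.56, 8.48, 8.68 and 8.35 in shGFP and 8.80, 8.97, 8.90 and 8.74 in shMKRN1. The groups were separate by a narrow margin, between shGFP 5 and shMKRN1 8. The change was 0.33 (SE 0.079; limma adjusted p = 0.0446), or 1.26-fold, and the call was lost without shGFP 1, 3 or 7 or shMKRN1 2, 4 or 6 (adjusted p 0.0665 to 0.132). Npc2, a soluble protein that hands cholesterol to the membrane protein NPC1, lay at 9.38, 9.37, 9.40 and 9.42 in shGFP and at 9.64, 9.58, 9.54 and 9.59 in shMKRN1. It was the tightest of the 6, with SDs of 0.023 and 0.041, and every shMKRN1 array was higher. The change was 0.19 (SE 0.046; limma adjusted p = 0.0463), or 1.14-fold. Its call was lost whichever array was left out (adjusted p 0.0549 to 0.14) and with quantile normalization (0.0933), with a change between 0.16 and 0.21 in all of these fits. Npc1, which takes over cholesterol from NPC2 and exports it from the lysosome, differed by 0.05 (interval -0.08 to 0.18; limma adjusted p = 0.737).

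Psap, the precursor of the saposins that present lipids to their enzymes, lay at 11.56, 11.43, 11.32 and 11.40 in shGFP and at 11.65, 11.63, 11.63 and 11.54 in shMKRN1. The shGFP 1 array overlapped shMKRN1 8, and the difference of 0.19 did not pass (limma adjusted p = 0.115). Grn, which encodes progranulin, differed by 0.14 with separate groups (limma adjusted p = 0.164). The intervals of the ceramidase gene Asah1 (-0.07 to 0.31), the sphingomyelinase gene Smpd1 (-0.33 to 0.16) and the thioesterase gene Ppt1 (-0.22 to 0.02) included 0.

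**Figure D3:**
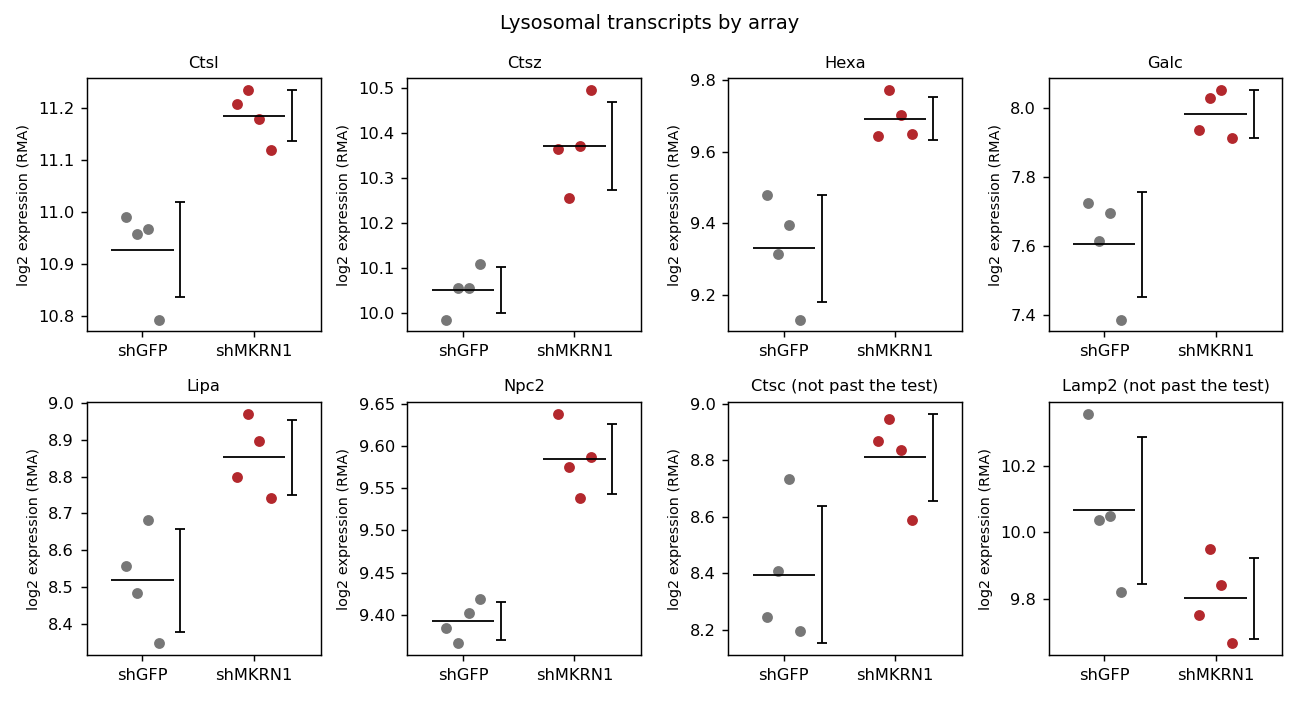
Log2 expression in each array (points) of the 6 transcripts that rose and of Ctsc and Lamp2, which did not pass, with the group mean (line) and SD (bar beside it, n = 4); axes are scaled per gene and do not start at 0. The groups are separate for the 6 and overlap for Ctsc and Lamp2.

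The membrane proteins gave no call. Lamp2, a glycoprotein of the lysosomal membrane that also serves as receptor in chaperone-mediated autophagy, had the lowest difference of all 47 genes. It lay at 10.36, 10.04, 10.05 and 9.82 in shGFP and at 9.75, 9.95, 9.84 and 9.66 in shMKRN1. The shGFP 7 array overlapped the shMKRN1 arrays, and the difference of -0.26 (interval -0.50 to -0.03; limma adjusted p = 0.205) was -0.35 without shGFP 7. Lamp1, its close relative, differed by 0.06 (interval -0.05 to 0.17). Mcoln1, the calcium and cation channel of the lysosome and a known TFEB target, lay at 10.50, 10.56, 10.61 and 10.45 in shGFP and at 10.76, 10.70, 10.63 and 10.65 in shMKRN1. Its groups were separate, and the difference of 0.16 had an adjusted p of 0.153 by limma. Scarb2, the receptor that delivers glucocerebrosidase, differed by -0.14 (interval -0.33 to 0.05). The tetraspanin gene Cd63 varied most between arrays of a group (pooled SD 0.257, beside a median of 0.0831 over the 47 genes), and ranged from 9.14 in shGFP 7 to 9.84 in shGFP 1.

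Tfeb and Tfe3 did not pass either. Tfeb had levels of 8.73, 8.72, 8.74 and 8.73 in shGFP and of 8.79, 8.69, 8.78 and 8.68 in shMKRN1. The shGFP values lay within the shMKRN1 range, and the difference was 0.01 (interval -0.10 to 0.11; limma adjusted p = 0.963). Tfe3 differed by -0.07 (interval -0.19 to 0.04; adjusted p = 0.481). An array measures their transcripts and not where the proteins lie in the cell.

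No subunit of the proton pump passed, and 11 of the 14 had a higher mean in shMKRN1, beside 52.8% of all genes. In the V0 sector Atp6v0d1, which links the sectors, lay at 10.54, 10.50, 10.62 and 10.50 in shGFP and at 10.75, 10.66, 10.72 and 10.66 in shMKRN1. Its groups were separate, and the difference was 0.16 (interval 0.04 to 0.27; limma adjusted p = 0.118). Atp6v0b, a proteolipid of the proton-conducting ring, differed by 0.16 and Atp6v0e by -0.01. Atp6v0a1, a large subunit that lines the proton path, went the other way, with 10.43, 10.28, 10.45 and 10.13 in shGFP and 10.18, 10.12, 10.17 and 10.08 in shMKRN1. The shGFP 7 array again lay inside the shMKRN1 range, and the difference of -0.19 had an adjusted p of 0.196 (-0.25 and 0.0499 without shGFP 7).

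In the V1 sector the catalytic subunit Atp6v1a lay at 10.87, 10.81, 10.86 and 10.73 in shGFP and at 10.96, 10.96, 10.90 and 10.89 in shMKRN1. The groups were separate by a narrow margin, and the difference was 0.11 (interval -0.01 to 0.23; limma adjusted p = 0.282). The other nucleotide-binding subunit, Atp6v1b2, differed by -0.03. Atp6v1d, part of the central rotor, had the highest difference in the pump, 0.20 (interval 0.04 to 0.37; adjusted p = 0.166), and shMKRN1 8 lay within the shGFP range. Without that array Atp6v1d differed by 0.27 with an adjusted p of 0.0453. Atp6v1h, a regulatory subunit, differed by 0.19, Atp6v1e1 and Atp6v1g1, both of the outer stalks, by 0.12 each, Atp6v1c1 by 0.06 and Atp6v1f by 0.04. A further probe set of Atp6v1f differed by -0.42 (limma adjusted p = 0.299 over all probe sets) and one of Atp6v1g1 by -0.11 (0.742), so probe sets of these genes differ in sign. The accessory proteins Atp6ap1 and Atp6ap2 differed by 0.03 and 0.11.

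The arrays differed in where the lysosomal genes lay as a whole. Of the 47 genes, 21 had their lowest value in shGFP 7 and 12 in shMKRN1 8, the arrays that stood apart across all genes. The median deviation of the 47 genes from their shGFP means was 0.05, 0.00, 0.01 and -0.08 in shGFP arrays 1, 3, 5 and 7 and 0.11, 0.12, 0.09 and 0.01 in shMKRN1 arrays 2, 4, 6 and 8. In shMKRN1 8 the 25 luminal genes had a median deviation of 0.11, the membrane proteins one of -0.14 and the pump subunits one near 0. The luminal genes lay higher in each shMKRN1 array (0.11 to 0.17) than in any shGFP array (-0.07 to 0.05). Within them, the medians of the sugar-cleaving enzymes overlapped (shMKRN1 6 at 0.08, shGFP 1 at 0.10). Those of the lipid and ester hydrolases overlapped too (shMKRN1 8 at -0.12). The values of the membrane proteins and of the pump overlapped between the groups, in the pump through shMKRN1 8 only. All of these are descriptions of chosen genes, with no test.

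**Figure D4:**
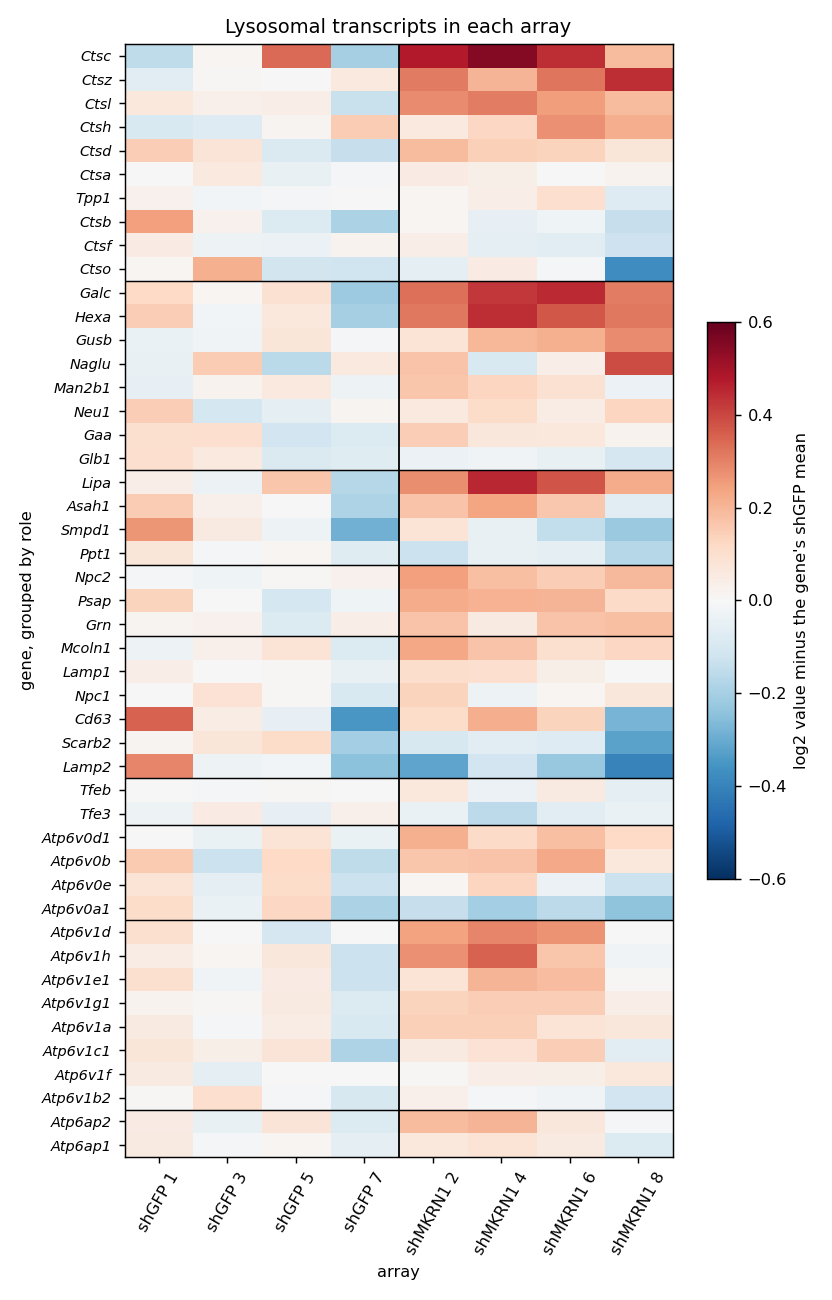
Log2 value of each of the 47 genes in each of the 8 arrays, minus the mean of the gene's shGFP arrays (red higher, blue lower), with genes grouped by role and horizontal lines between roles. Ctsz, Ctsl, Galc, Hexa, Lipa and Npc2 are red in all 4 shMKRN1 arrays. Cd63, Scarb2 and Lamp2 are blue in shGFP 7 and shMKRN1 8, and Scarb2 and Lamp2 lie below their shGFP mean in all 4 shMKRN1 arrays.

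Other genes of the lysosome, from 5 lists of 113 genes of which 106 were measured, were called in 12 cases. Of these, 11 were higher (10.4%, beside 3.66% of all genes) and 1 lower (beside 0.838%). Of 28 further hydrolases and luminal helpers, 6 rose (21.4%, beside 3.66% of all genes) and none fell, with a median change of 0.07. At an unadjusted p under 0.05, 9 were higher and 0 lower, beside 13.7% and 5.78% of all genes. Aga, which cleaves the link between sugar and asparagine, had the largest change. It lay at 7.67, 7.64, 7.73 and 7.46 in shGFP and at 8.19, 8.45, 8.35 and 8.05 in shMKRN1, with no overlap. It rose 1.56-fold (log2 change 0.64, SE 0.092; limma adjusted p = 0.00542). The mannosidase gene Man2b2 rose 1.25-fold (0.33, SE 0.044; adjusted p = 0.0048), with SDs of 0.028 and 0.017. The endopeptidase gene Lgmn rose by 0.35, the phospholipase gene Pla2g15 by 0.29, the acid phosphatase gene Acp5 by 0.26 and Manba, beta-mannosidase, by 0.24 (adjusted p 0.0318 to 0.0431).

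Of 30 further membrane proteins, 3 rose (10%, beside 3.66% of all genes) and none fell. At an unadjusted p under 0.05, 8 were higher and 0 lower, beside 13.7% and 5.78% of all genes. Laptm4b, which recruits an amino acid transporter to lysosomes, lay at 9.80, 9.78, 9.94 and 9.93 in shGFP and at 10.19, 10.22, 10.27 and 10.27 in shMKRN1. These groups were far apart for their spread, and it rose 1.30-fold (0.38, SE 0.056; limma adjusted p = 0.00631). The histidine and peptide transporter gene Slc15a4 rose by 0.22 and the phosphatase gene Tmem55a, listed on the platform as Pip4p2, by 0.23. Of 17 further pump subunits and assembly factors, 1 rose (5.88%, beside 3.66% of all genes) and 1 fell (beside 0.838%). Tcirg1, the a3 subunit known from osteoclasts, rose by 0.21 (limma adjusted p = 0.0443). Ccdc115, an assembly factor of the pump, lay at 8.50, 8.47, 8.49 and 8.40 in shGFP and at 8.31, 8.17, 8.12 and 7.95 in shMKRN1. It was lower in every shMKRN1 array and fell by 0.33 (SE 0.074; adjusted p = 0.0361). Of 11 genes of mannose 6-phosphate tagging and sorting, 1 rose (9.09%, beside 3.66% of all genes). It was the sorting receptor gene Sorl1, with a change of 0.30 (limma adjusted p = 0.0256). None of 20 genes of the MiT/TFE factors, mTORC1 and its lysosomal anchor passed limma. At an unadjusted p under 0.05, 6 of the 20 were higher and 0 lower, beside 13.7% and 5.78% of all genes. Lamtor5 had the smallest adjusted p (difference 0.27, limma adjusted p = 0.0868). Of these 12 calls, 3 held without each array in turn (Aga, Man2b2 and Laptm4b), and the other 9 were lost in most of the 8 fits. Sorl1 held in 3 of them, Lgmn and Ccdc115 in 2, Acp5, Pla2g15 and Tmem55a in 1, and Manba, Slc15a4 and Tcirg1 in 0. Of the 11 genes that rose, 8 had a start window and 2 of them held TCACGTG (25%), beside 23 of the 91 genes of these lists with a window (25.3%).

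**Figure D5:**
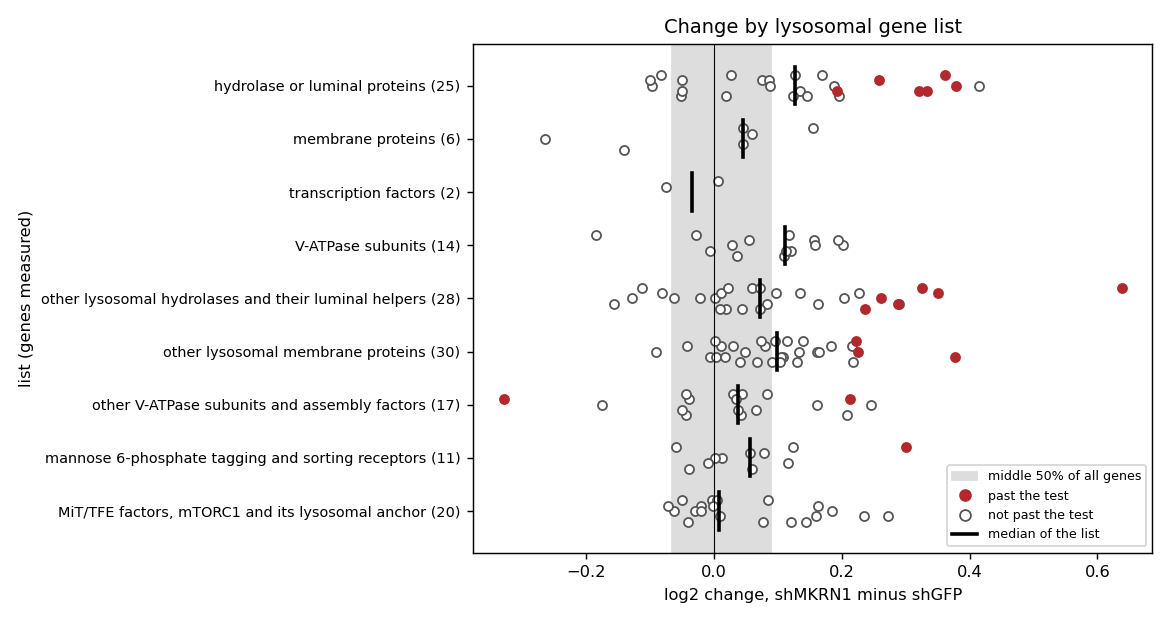
Log2 change (shMKRN1 minus shGFP) of each gene (points, spread vertically only for legibility) in the 4 classes of the 47 genes and in the 5 further lysosome lists, with the number measured in brackets, the median (black bar) and the middle 50% of all genes (grey band, -0.07 to 0.09). Red points passed limma and lie mostly among the hydrolases and luminal proteins, with Aga at 0.64 the highest and Ccdc115 at -0.33 the lowest.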

How the data were processed

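The authors deposited log2 expression values of 34760 probe sets on 8 arrays. The submitters' processing notes name RMA, with no version. RMA corrects the background, brings arrays to a common distribution and summarises probes, so a change shared by most genes cannot be seen, and differences of dim probe sets shrink. Symbols came from the platform annotation: 21640 probe sets had 1 symbol, 1321 had several and 11799 none. The probe set with the highest mean was kept per symbol (19937 genes). Groups were taken from the sample titles, whose numbers 1 to 8 serve to name the arrays. No label states that arrays within a group stem from separate transfections; p-values then measure only the variation among these samples, possibly technical.

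Differences were fitted with limma 3.58.1 in R 4.3.3 (lmFit, eBayes, 6 residual degrees of freedom, no filter, no covariate), two-sided, with Benjamini-Hochberg adjustment over all 19937 genes and a threshold of 0.05. The fit was tested on simulated data. Intervals are 95% confidence intervals of the log2 change. By the naming rule the 47 measured genes are described by role, those called or near background with values; values of other genes were added by role. Of the further lists, every called gene is named, or else the one with the smallest p. The genes and lists were chosen with earlier results of these data known. The number of arrays, 4 per group, limits the precision. Levels are not compared between probe sets. Motifs were searched in RefSeq start windows by Entrez number. Alternatives were quantile normalization, centred array medians, a level filter, array weights, a trended and robust prior, adjustment over all probe sets, the mean of a gene's probe sets and leaving out each array.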

Additional observations from a re-analysis of the deposited data

Results flagged for a closer look

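In 6 of 94 combinations of a lysosomal gene and a group, 1 array lay far from the other 3, measured as the gap to the nearest array over the range of the group, past Dixon's critical value for 4 samples; chance gives this in about 1 in 20 groups. In shGFP, array 7 was low for Ctsl (0.8332) and for Atp6v1c1 (0.8302). In shMKRN1, array 8 was low for Psap (0.8375), Scarb2 (0.8759) and Atp6v1g1 (0.8799), and array 4 was low for Grn (0.896). Without shGFP 7 the change of Ctsl was 0.21 (limma adjusted p = 0.05, just under the threshold) and that of Atp6v1c1 was -0.01 in place of 0.06. Without shMKRN1 8 the difference of Scarb2 was -0.08 in place of -0.14, that of Psap 0.21 and that of Atp6v1g1 0.14, and without shMKRN1 4 that of Grn was 0.17, none of them past the threshold.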

How the results depend on the processing

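No paired fit was made, because the groups share no replicate numbers and no label pairs the arrays. The 2 arrays that stood apart, shGFP 7 and shMKRN1 8, have consecutive numbers, and variation shared between neighbouring arrays was not tested. The count of genes called, 896 (729 higher), was 1595 (1285) with only genes above the median level, 2757 (1933) with array weights, 1549 (1225) with a trended and robust variance prior and 378 (321) adjusted over all probe sets. In the same settings 10, 12, 9 and 1 lysosomal genes were called higher in place of 6, among them 9, 10, 8 and 1 luminal genes and 1, 2, 1 and 0 pump subunits. The share called over all genes changed in these settings too: the 1933, 1225 and 321 called higher are out of 19937 genes. The level filter tests fewer genes, so its 1285 are out of fewer than 19937 and its 10 out of fewer than 47. The 3.66% called higher in the main fit is therefore no background for these counts, and each belongs beside the count over all genes in its own setting. Leaving out each array gave 309 to 852 genes called, 256 to 650 higher, 0 to 6 lysosomal genes higher and 0 to 1 lower (Atp6v0a1, without shGFP 7), 0 to 5 luminal genes, 0 membrane proteins and 0 to 1 pump subunits (Atp6v1d, without shMKRN1 8). The median change of the lysosomal genes was 0.09 and lay between 0.08 and 0.12 without each array. Quantile normalization, centred medians and the mean of a gene's probe sets gave 5, 6 and 6 lysosomal genes. The median of all genes was 0.02 and 0.03 with the first and second of these. Leaving out shGFP 7 and shMKRN1 8 together, chosen after seeing the data, gave 5. Over single genes, 39 of the alternative fits lost a call, 16 gained one and none reversed a call. The signal over background limits Ctsh, which array weights called, and Ctso.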
